A study of Mus musculus with 9 samples.

Results

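The table deposited for the mouse hemibrain RNA-seq held 12 genes that encode ion channels, ion pumps and solute carriers, out of 689 genes in all. They were taken by gene symbol alone, as every row whose symbol began with one of 15 prefixes used for channel, transmitter receptor, pump and carrier genes, with the mitochondrial carriers (Slc25) left out. Within the table expression played no part in the choice, and no further filter on low values was applied, so that all 12 genes were tested. The authors had first kept only genes above a minimum level that their own model called. Absence from the table is therefore no sign of absence from the brain. Among them were the solute carriers *Slc36a1*, *Slc36a4* and *Slc4a8*, 3 potassium channel subunits (*Kcnj10*, *Kcna6* and *Kcnab1*), the sodium channel *Scn1a*, the calcium channel family member *Cacng7*, the chloride transporter *Clcn3*, and the pump subunits *Atp1b3* and *Atp6v0b*. Of the 15 prefixes, 8 had no gene in the table, including all 6 for receptors (GABA A, GABA B and the AMPA, NMDA, kainate and metabotropic classes of glutamate receptor), so that the group held 0 receptors.

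All mice were male C57BL/6J, 3 in each of 3 groups. Young controls were 5 months old by the sample labels, came from JAX and received control diet for 6 weeks. Aged controls were 24 months old, came from NIA and received control diet for 6 weeks. Aged repopulated mice were also 24 months old and from NIA, and received PLX5622, a brain-penetrant inhibitor of the colony-stimulating factor receptor that microglia need to survive, for 2 weeks, followed by control diet for 4 weeks while new microglia filled the brain. Because young and aged mice came from different suppliers, age and supplier cannot be told apart. Each library came from the frozen hemibrain of 1 perfused mouse after behavioural testing, so that neurons, glia and vessels were measured together, and fewer cells of a type and less RNA per cell cannot be told apart. Values are RPKM, reads scaled to transcript length and to the library's total, and the authors deposited only genes that their own model of age and microglial state had called in these libraries, so that the share of changed genes in the table is not that of the genome.

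Ion pumps, channels and carriers together set the electrical and chemical state of brain cells. The sodium/potassium ATPase builds the gradients that channels and exchangers spend. Voltage-gated sodium and potassium channels shape the action potential, inwardly rectifying potassium channels of glia take up the potassium that neurons release, and acid-base exchangers hold the pH of the cytosol. A parallel set works inside the cell, where the vacuolar ATPase pumps protons into endosomes, lysosomes and synaptic vesicles, and proton-coupled exchangers and amino acid carriers use the resulting gradient.

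The levels of the 12 genes spanned an order of magnitude (the plot of RPKM by library). In young controls *Atp6v0b*, the proteolipid subunit of the membrane sector of the vacuolar ATPase, was highest at 110 ± 2.32 RPKM (SD, n = 3), followed by *Cacng7*, a transmembrane auxiliary protein of AMPA receptors, at 68.7 ± 1.90 RPKM. *Atp1b3*, a beta subunit of the sodium/potassium ATPase, and *Kcnj10*, the glial inward rectifier Kir4.1, came next at 53.0 ± 2.42 and 47.4 ± 2.89 RPKM. *Clcn3*, an endosomal chloride/proton exchanger, stood at 36.6 ± 0.518 RPKM, *Kcnab1*, a cytosolic beta subunit of voltage-gated potassium channels, at 34.9 ± 0.839 RPKM, and *Scn1a*, the sodium channel Nav1.1 of fast-firing inhibitory neurons, at 32.9 ± 1.50 RPKM. Lower levels were those of *Kcna6*, a pore-forming Shaker-type potassium channel subunit, at 18.8 ± 0.748 RPKM, the amino acid carriers *Slc36a4* and *Slc36a1* at 14.2 ± 0.717 and 13.1 ± 0.0550 RPKM, and *Slc4a8*, a sodium-driven chloride/bicarbonate exchanger, at 12.4 ± 0.312 RPKM. Among the neighbours named here, only *Atp1b3* and *Kcnj10* had overlapping young control libraries.

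**Figure D1:**
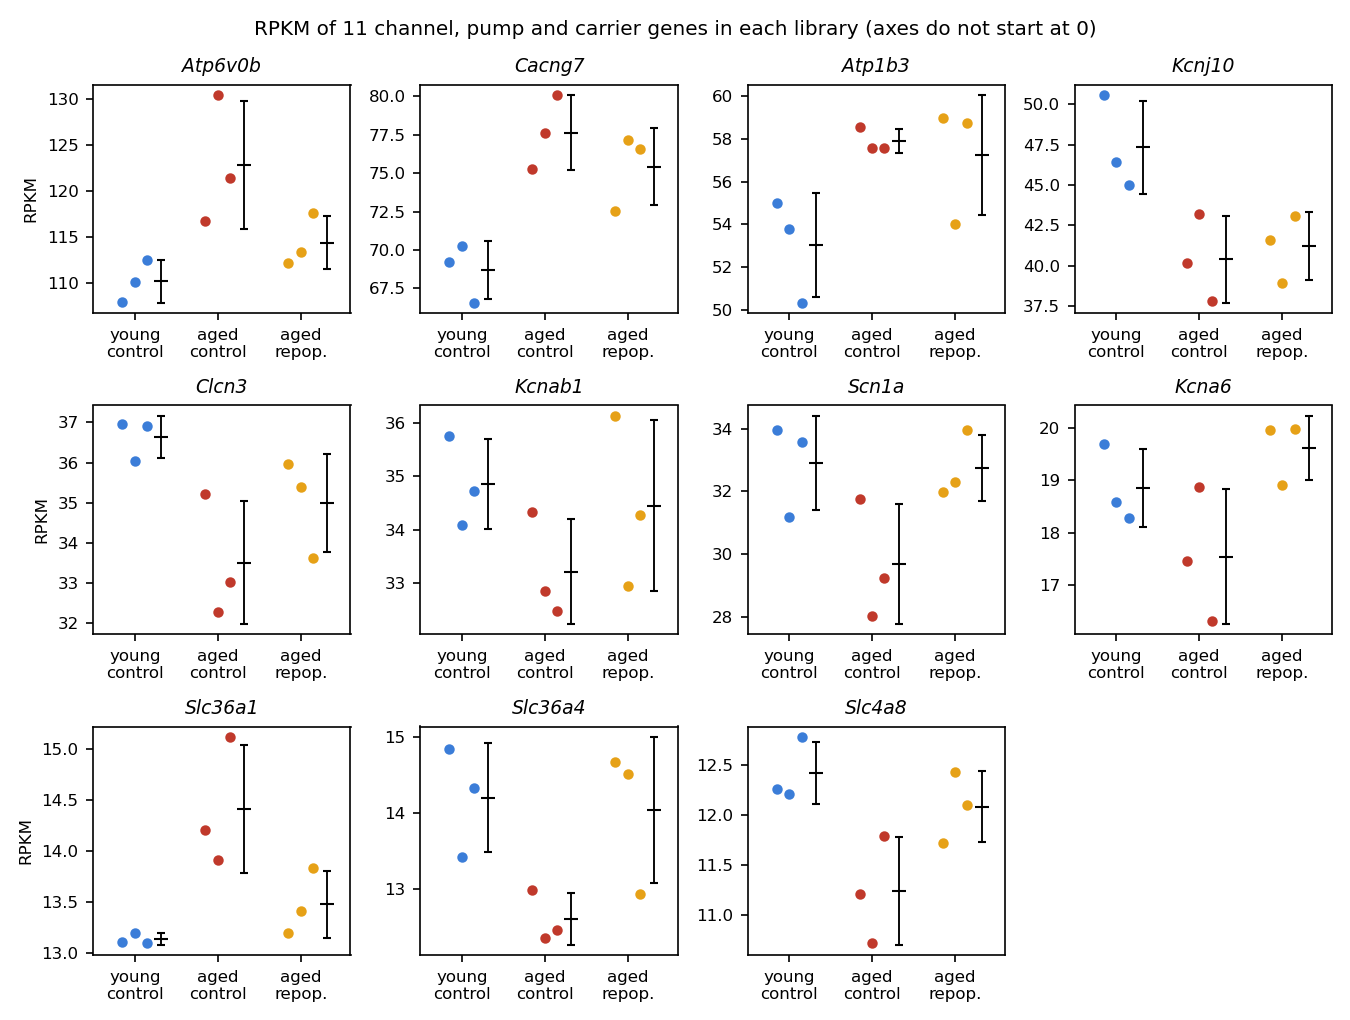
RPKM of 11 of the 12 genes in each of the 9 libraries, 1 panel per gene, with the 3 groups on the horizontal axis, points for libraries, bars for the group mean and SD, and vertical axes that do not start at 0. *Kcnj10* fell from 47.4 RPKM in young to 40.4 RPKM in aged controls and stood at 41.2 RPKM after repopulation, whereas *Scn1a* stood at 32.9, 29.7 and 32.7 RPKM.

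With age, 9 of the 12 genes differed between aged and young controls (limma on log2(RPKM + 1), Benjamini-Hochberg adjusted p under 0.05 over the 689 genes), 5 lower and 4 higher. Of all 689 genes, 62.8% were called in this comparison, 16.5% lower and 46.3% higher. The young and aged libraries did not overlap for 8 of the 12 genes, against 70.1% of all genes. Counted without a test, 8 of the 12 genes were lower and 4 higher in aged controls, against 32.2% and 67.8% of all genes, and the median log2 difference was -0.08 for the 12 genes and 0.10 for all 689. The size of the differences was ordinary for the table, with a median absolute log2 difference of 0.13 for both. The 5 lower genes were channels, exchangers and a carrier (*Kcnj10*, *Scn1a*, *Clcn3*, *Slc4a8* and *Slc36a4*). The 4 higher genes were both pump subunits, the AMPA receptor auxiliary protein and a lysosomal carrier (*Atp6v0b*, *Atp1b3*, *Cacng7* and *Slc36a1*). Relative to the library median, taken over the 689 genes, 0 of these 4 were called. The count of 9 depended on single libraries, being 4 without the young library P07, 3 without P09, and 5 without either of the aged libraries P11 and P12. The count over all 689 genes fell as well, from 433 to 289 without P07, 269 without P09, 296 without P11 and 356 without P12.

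**Figure D2:**
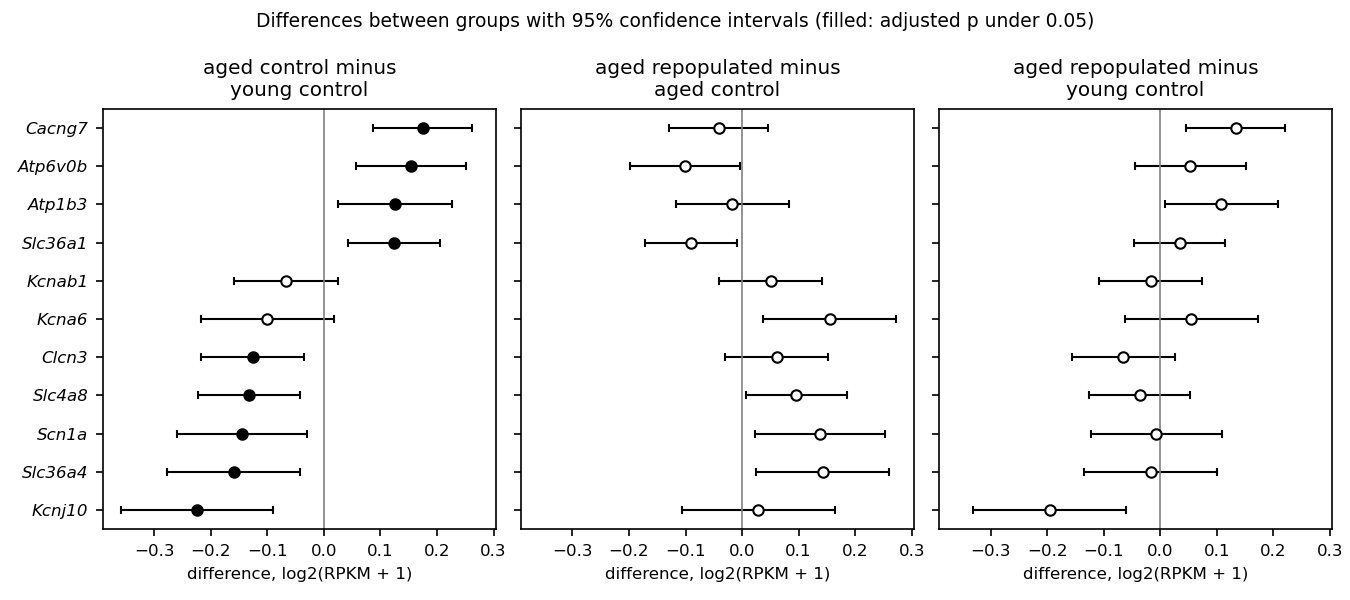
Log2 difference of log2(RPKM + 1) for 11 of the 12 genes in the 3 comparisons, with 95% confidence intervals from limma and filled points for an adjusted p under 0.05. For age 9 genes are filled, and for both comparisons with aged repopulated mice 0 are.

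*Kcnj10* showed the largest age difference of the 12. It was at 50.6, 46.4 and 45.0 RPKM in the young libraries P07, P08 and P09 and at 40.2, 43.2 and 37.8 RPKM in the aged libraries P10, P11 and P12. Every aged library lay below every young one, and the fall of the mean was 14.7% (log2 difference -0.22, SE 0.06, limma adjusted p = 0.0140). The gene lies at chr1:172341210-172374085 on the plus strand (GRCm38). Kir4.1 is carried by astrocytes and oligodendrocytes. *Glul*, the glutamine synthetase of astrocytes and the only 1 of 9 listed astrocyte markers in the table, rose with age from 411 ± 8.55 to 460 ± 19.3 RPKM (log2 difference 0.16, limma adjusted p = 0.0133). *Gjb6*, which encodes an astrocytic connexin and was listed with other channel genes, rose by a log2 difference of 0.23 (limma adjusted p = 0.00962). Both rises are on the deposited scale, where the median over all genes was 0.10, and against the direction of *Kcnj10*. *Opalin*, a myelinating oligodendrocyte gene and the only 1 of 9 listed oligodendrocyte markers in the table, fell from 17.5 ± 1.78 to 11.8 ± 1.22 RPKM (log2 difference -0.53, limma adjusted p = 0.0133). The part of glial cell numbers in the *Kcnj10* values was not tested.

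The other channel to fall was *Scn1a* (chr2:66270778-66440840, minus strand). It was at 33.97, 31.2 and 33.6 RPKM in young and 31.8, 28.0 and 29.2 RPKM in aged controls (log2 difference -0.15, SE 0.05, limma adjusted p = 0.0334). The groups overlapped, since the aged library P10 lay above the young library P08. The call ended with correction for transcript length (-0.06, limma adjusted p = 0.343) and without any 1 of P07, P09, P11 and P12 (limma adjusted p from 0.0818 to 0.116). The potassium channel genes of neurons did not pass the test. *Kcna6* (chr6:126708329-126740674, minus strand) was at 19.7, 18.6 and 18.3 RPKM in young and 17.5, 18.9 and 16.3 RPKM in aged controls, with overlap (limma adjusted p = 0.114, 95% interval of the log2 difference -0.22 to 0.02). *Kcnab1* (chr3:65109384-65378223, plus strand) went from 34.9 ± 0.839 to 33.2 ± 0.975 RPKM (limma adjusted p = 0.164, 95% interval -0.16 to 0.02). For *Kcna6*, 2355 of 5945 exon bases also lie in the opposite-strand gene *Gm26673*, and for *Kcnab1* 201 of 8593 lie in *A330015K06Rik*, and it is not given in the sources used here whether the counting used strand.

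Of the exchangers, *Clcn3* and *Slc4a8* fell on the deposited scale, but neither was called after correction for transcript length. *Clcn3* (chr8:60910389-60983300, minus strand) was at 37.0, 36.1 and 36.9 RPKM in young and 35.2, 32.3 and 33.0 RPKM in aged controls (log2 difference -0.13, SE 0.04, limma adjusted p = 0.0234). *Slc4a8* (chr15:100761747-100823968, plus strand) was at 12.3, 12.2 and 12.8 RPKM in young and 11.2, 10.7 and 11.8 RPKM in aged controls (log2 difference -0.13, SE 0.04, limma adjusted p = 0.0198). Neither gene had overlapping groups. The call for *Clcn3* ended with length correction (-0.10, limma adjusted p = 0.0769) and without any 1 of P07, P09, P11 and P12 (limma adjusted p from 0.0619 to 0.0776), and that for *Slc4a8* ended without P09 (0.0691) or P11 (0.0648).

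Both pump subunits rose with age on the deposited scale, but neither was called relative to the library median, and both differences fell below 0 after correction for transcript length. *Atp6v0b* (chr4:117884326-117887333, minus strand) was at 108, 110 and 113 RPKM in young and 116.7, 130.5 and 121.4 RPKM in aged controls (log2 difference 0.15, SE 0.04, limma adjusted p = 0.0167). *Atp1b3* (chr9:96332655-96364442, minus strand) was at 55.0, 53.8 and 50.3 RPKM in young and 58.6, 57.6 and 57.6 RPKM in aged controls (log2 difference 0.13, SE 0.04, limma adjusted p = 0.0340). The young and aged libraries did not overlap for either gene. In *Atp6v0b*, 243 of 2051 exon bases also lie in the opposite-strand gene *Gm12841*. *Cacng7* (chr7:3332955-3368221, plus strand) had the lowest adjusted p of the 12, at 69.2, 70.2 and 66.6 RPKM in young and 75.2, 77.6 and 80.1 RPKM in aged controls (log2 difference 0.17, SE 0.04, limma adjusted p = 0.00962). All its aged libraries were above all its young ones, a rise of 13.1% of the mean on the deposited scale. Relative to the library median the difference was 0.07 (limma adjusted p = 0.241), and it was 0.03 with quantile normalization or GC content correction (0.543 and 0.589) and 0.05 with length correction (0.327). Leaving out 1 library also ended the calls for *Atp6v0b* (P07, limma adjusted p = 0.0539) and *Atp1b3* (P08, P09, P10, P11 or P12, 0.0562 to 0.125), but not that for *Cacng7*.

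The amino acid carriers of the Slc36 family moved apart. *Slc36a1* (chr11:55204350-55236330, plus strand), which carries small amino acids out of lysosomes, was at 13.1, 13.2 and 13.1 RPKM in young and 14.2, 13.9 and 15.1 RPKM in aged controls, and rose (log2 difference 0.12, SE 0.04, limma adjusted p = 0.0182). *Slc36a4* (chr9:15709738-15743361, plus strand), a high-affinity member of the family, was at 14.8, 13.4 and 14.3 RPKM in young and 13.0, 12.4 and 12.5 RPKM in aged controls, and fell (log2 difference -0.16, SE 0.05, limma adjusted p = 0.0255). Groups overlapped for neither gene. The call for *Slc36a1* ended relative to the library median (limma adjusted p = 0.762), with quantile normalization (0.143), with GC content correction (0.738) and without P07 (0.0504) or P09 (0.0527). That for *Slc36a4* ended with length correction (-0.11, limma adjusted p = 0.115) and without any 1 of P07, P09, P11 and P12 (0.0633 to 0.0929). The ratio of *Slc36a1* to *Slc36a4* within a library, which scaling of the library cannot move, was 0.884 to 0.983 in young controls, 1.09 to 1.21 in aged controls and 0.899 to 1.07 in aged repopulated mice. Each aged control library thus had more RPKM of *Slc36a1* than of *Slc36a4*, which no young library had. Taken on RPKM + 1, where scaling can move it slightly, the log2 ratio differed by 0.28 (SE 0.06) with age and by -0.23 (SE 0.08) with repopulation (exact two-sided permutation p = 0.1 for each, the smallest that 3 libraries against 3 allow, 0.2 after adjustment over 6 tests). The comparison of ratios was chosen after the values had been seen, and each test of a ratio used RPKM + 1. For the other pair from a shared channel complex, *Kcna6* to *Kcnab1*, the ratio was 0.526 to 0.551 in young, 0.502 to 0.574 in aged and 0.552 to 0.583 in aged repopulated mice (exact permutation p = 0.7 for age, 0.3 for repopulation, and 0.1 for aged repopulated against young mice, whose ratios did not overlap, with 0.2 after adjustment for the last).

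The vacuolar ATPase and *Slc36a1* both act at lysosomes, where many genes carry the E-box core CACGTG, bound by transcription factors of the TFEB family, close to their start. The promoters of *Atp6v0b* and *Slc36a1* are shown for this reason, as the 250 bases before the RefSeq start of each gene on its own strand (GRCm38.p6, chr4:117887330-117887579 minus strand and chr11:55204090-55204339 plus strand), with the CACGTG core in capitals.
Atp6v0b: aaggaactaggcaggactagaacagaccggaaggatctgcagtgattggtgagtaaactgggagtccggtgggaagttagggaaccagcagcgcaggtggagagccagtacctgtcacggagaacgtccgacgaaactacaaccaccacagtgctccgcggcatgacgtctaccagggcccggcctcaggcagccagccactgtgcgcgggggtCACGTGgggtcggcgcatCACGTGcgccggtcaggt
Slc36a1: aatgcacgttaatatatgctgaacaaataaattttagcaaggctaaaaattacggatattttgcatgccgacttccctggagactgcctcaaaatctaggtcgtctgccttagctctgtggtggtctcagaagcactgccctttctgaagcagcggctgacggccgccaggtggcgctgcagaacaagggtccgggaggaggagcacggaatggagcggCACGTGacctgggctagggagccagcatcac
The *Atp6v0b* sequence holds the core with first bases 36 and 18 bases before the start. In *Slc36a1* the first base of the core is 31 bases before the start, and a further copy that begins 3 bases before it runs past the printed end. Promoter windows of 250 bases before to 50 after a start were found for 11 of the 12 genes, 15 windows in all, and 5 of these windows, in 4 genes, held CACGTG, a palindrome that reads alike on both strands. The other genes were *Kcnab1* and *Atp1b3*. Of 32851 promoter windows in the mouse reference, 7.15% held it. The cyclic AMP response element TGACGTCA was in the window of *Clcn3* and in 1.79% of all windows. These are matches of letters, and binding was not measured.

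After repopulation, 0 of the 12 genes passed the test against aged controls (limma, adjusted p under 0.05, 8.71% of all genes called), 6 had an unadjusted limma p under 0.05 (39.3% of all genes), and for 3 the groups did not overlap (37.4%). The 8.71%, or 60 genes, was itself unsteady. With only the 2 groups compared 5 of 689 genes were called, and with length correction 6 of 686. Of the 12 genes, 8 were higher and 4 lower in repopulated than in aged control mice, against 38% and 62% of all genes. The median log2 difference was 0.04 for the 12 genes and -0.05 for all. The aged controls are shared by the comparisons for age and for repopulation, so a chance deviation of these libraries moves both in opposite directions, and the values are given side by side only.

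The largest differences after repopulation were in *Kcna6*, *Slc36a4* and *Scn1a*, and none passed the threshold. *Kcna6* was at 19.96, 18.9 and 19.98 RPKM in the repopulated libraries P01, P02 and P03 against 17.5, 18.9 and 16.3 RPKM in aged controls, which puts P02 at 18.90 just above the highest aged control at 18.87 RPKM (limma adjusted p = 0.0759, 95% interval of the log2 difference 0.04 to 0.27). *Scn1a* was at 31.99, 32.3 and 33.95 RPKM, all above the aged controls, and their mean of 32.7 RPKM stood beside 32.9 RPKM in young controls (log2 difference 0.14, limma adjusted p = 0.0917, 95% interval 0.02 to 0.25). *Slc36a4* was at 14.7, 14.5 and 12.9 RPKM and overlapped the aged controls through P03 (log2 difference 0.14, limma adjusted p = 0.0917). *Slc36a1* was at 13.2, 13.4 and 13.8 RPKM, all below the aged controls (log2 difference -0.09, limma adjusted p = 0.107).

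*Slc4a8* at 11.7, 12.4 and 12.1 RPKM and *Atp6v0b* at 112, 113 and 118 RPKM each overlapped the aged controls (log2 differences 0.10 and -0.10, limma adjusted p = 0.112 and 0.119). The intervals of the remaining 6 genes all held 0. For *Kcnj10*, at 41.6, 38.95 and 43.1 RPKM, the log2 difference was 0.03 (95% interval -0.11 to 0.16, limma adjusted p = 0.710), for *Cacng7* it was -0.04 (-0.13 to 0.05, limma adjusted p = 0.407), and for *Atp1b3* it was -0.02 (-0.12 to 0.08, limma adjusted p = 0.772). The difference was 0.06 for *Clcn3* and 0.05 for *Kcnab1*. For *Clcn3* the 95% interval of -0.03 to 0.15 also holds a difference of the size seen with age.

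Set against young controls, aged repopulated mice also had 0 of the 12 genes called (limma, 4.93% of all genes called), 3 with an unadjusted limma p under 0.05 (28.4%) and 3 without overlap (42.7%). Of the 12 genes, 5 were higher and 7 lower, against 64.9% and 35.1% of all genes. The genes without overlap were *Kcnj10*, *Cacng7* and *Clcn3*. *Kcnj10* stood 13.0% below the young mean (log2 difference -0.20, 95% interval -0.33 to -0.06, limma adjusted p = 0.0735) and *Cacng7* 9.84% above it (log2 difference 0.13, 95% interval 0.05 to 0.22, limma adjusted p = 0.0665). *Clcn3* differed by -0.07 (limma adjusted p = 0.280) and *Atp1b3*, with overlap, by 0.11 (limma adjusted p = 0.145). The other 8 genes had adjusted p from 0.403 for *Atp6v0b* to 0.935 for *Scn1a*.

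How many genes were called higher or lower with age depended on how libraries were scaled (the plot of calls by scaling). The median of log2(RPKM + 1) over the table's 689 genes was 0.11 higher in aged than in young controls and 0.05 lower in aged repopulated mice than in aged controls. This library median covers only genes that the authors' model had called, of which 46.3% were called higher and 16.5% lower with age here. Centring, quantile normalization and the length and GC corrections thus also take out any shift that these selected genes share. Whether that shift lay in the libraries or in the mice was not tested. Relative to the library median, 0 of the 12 genes were called higher and 8 lower in aged controls, and quantile normalization gave the same counts. Counted without a test, 4 were higher and 8 lower under both, as on the deposited scale. Of all 689 genes, centring called 78 higher and 215 lower, and quantile normalization 88 and 189. Correction for GC content called 0 higher and 6 lower of the 12 genes, and 138 higher and 156 lower of 686 genes. Thus the 4 genes called higher on deposited values rose about as much as the median of the table, with centred log2 differences of 0.05 for *Atp6v0b*, 0.07 for *Cacng7*, 0.02 for *Atp1b3* and 0.02 for *Slc36a1*, whereas *Kcna6* and *Kcnab1* were called lower after centring (-0.21 and -0.18, limma adjusted p = 0.00708 and 0.00628). *Kcnj10* was called lower at 0.05 in each of 18 alternative fits, with limma adjusted p from 0.0019 to 0.0489, but not at the stricter threshold of 0.01 in the fit reported here. After centring, 4 of the 12 genes were called higher in repopulated than in aged control mice, namely *Scn1a* (0.19, limma adjusted p = 0.0365), *Kcna6* (0.21, 0.0216), *Slc36a4* (0.20, 0.0369) and *Slc4a8* (0.15, 0.0418), among 111 of all 689 genes called higher. With correction for transcript length instead, 0 of the 12 genes and 6 of 686 genes were called in that comparison.

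**Figure D3:**
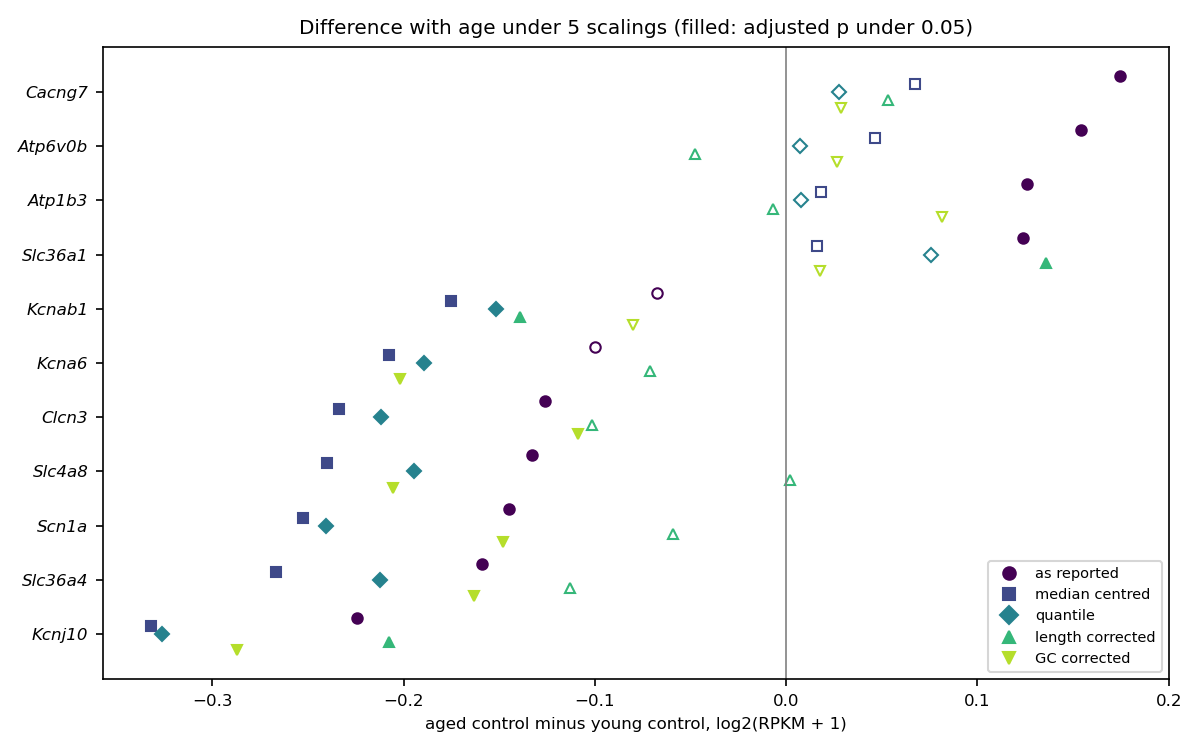
Age difference of 11 of the 12 genes under each scaling of the libraries, as log2 difference, with 1 marker shape per scaling and filled markers for a limma adjusted p under 0.05. Centring and quantile normalization each leave 7 of the plotted genes called lower and 0 higher, correction for transcript length leaves 3 called, and *Kcnj10* is lower throughout.

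Transcript length moved with the age calls. Among the 12 genes, those called higher had a median transcript length of 2103 bases (1000 to 5264) and those called lower 6539 bases (5407 to 11790), without overlap. Over the table the medians were 2178 and 5973 bases, so that the pattern was that of all genes and not particular to transport. The 12 genes were long, with a median of 5336 bases against 3179 for all 686 genes with a length. After each library was corrected for a trend on log2 length, 3 of the 12 genes and 143 of 686 genes were called with age. These were *Kcnj10* lower (-0.21, limma adjusted p = 0.0368), *Kcnab1* lower (-0.14, 0.0395) and *Slc36a1* higher (0.14, 0.0239). *Slc36a1*, with 5264 bases, was the longest of the genes that rose. The corrected difference was 0.0022 for *Slc4a8*, the longest of the 12 at 11790 bases, and -0.047 for *Atp6v0b*, the shortest at 1000 bases, so both calls ended and both signs turned. Whether length acts through the libraries or through the biology of long genes was not tested.

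**Figure D4:**
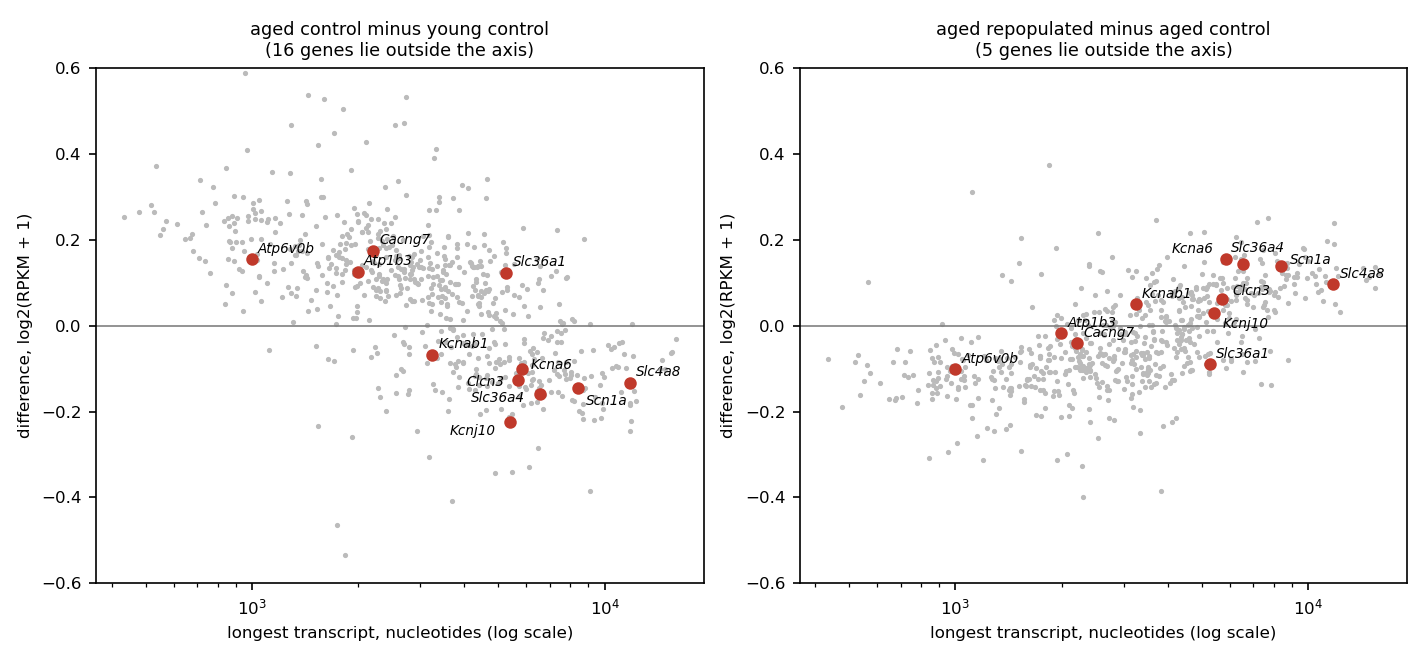
Log2 difference of log2(RPKM + 1) against transcript length in bases (log axis), for age on the left and repopulation on the right, with 11 of the 12 genes in red, the other genes of the table in grey, and some genes outside the axis. With age long genes lie lower, and *Kcnj10* (5407 bases, -0.22) and *Slc36a1* (5264 bases, 0.12) lie on opposite sides at nearly the same length.

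Other transport genes in the table were few and did not share a direction on the deposited scale. On that scale, without length correction, the median log2 difference with age over all genes was 0.10. Of 3 mitochondrial carriers, *Slc25a36* fell with age (-0.12, limma adjusted p = 0.0210) and *Slc25a16* was at 0.0014. *Atp5c1*, the gamma subunit of mitochondrial ATP synthase, rose (0.14, limma adjusted p = 0.0104), like the pump subunits. Of 4 other carriers and pumps, *Abcg1*, a sterol exporter, rose (0.09, limma adjusted p = 0.0450), the flippase *Atp8b2* fell (-0.16, limma adjusted p = 0.00993) and *Atp11a* and *Slco1a4* did not pass. Of 2 other channel genes, *Gjb6* rose as given above and the volume-regulated anion channel subunit *Lrrc8b* differed by -0.16 (limma adjusted p = 0.0547). *Slco1a4*, an organic anion carrier of brain endothelium, was lower after repopulation, at 12.9, 11.6 and 11.0 RPKM against 16.2, 14.9 and 16.1 RPKM in aged controls (log2 difference -0.38, limma adjusted p = 0.0118), and was the only 1 of the 4 carriers and pumps called in that comparison. Of 5 genes that anchor or assist channels and synapses, *Nfasc*, *Nlgn1* and *Ank3* fell with age (-0.21, -0.18 and -0.12, limma adjusted p = 0.0108, 0.0170 and 0.0212), *Sptbn4* rose (0.20, limma adjusted p = 0.0133) and *Kctd12* did not pass. *Ank3*, the ankyrin that holds sodium channels at the axon initial segment, was called higher after repopulation (0.15, limma adjusted p = 0.0452), the comparison in which *Scn1a* differed by 0.14 without passing. In that comparison 0 of the 689 genes were called higher without P03, without P08 or with only the 2 groups compared. The call for *Ank3* thus ended in each of these fits.

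Markers of cell types in the same libraries moved in several directions on the deposited scale. Of 15 microglial markers 8 were in the table, and 7 were higher with age and 0 changed with repopulation, with summed RPKM of 155 to 161 in young, 229 to 272 in aged and 219 to 318 in aged repopulated mice. Of 14 neuronal markers 4 were in the table (676 to 700.3, 736 to 802 and 721 to 731 RPKM), with 3 higher and 1 lower with age and 1 lower with repopulation. Of 8 endothelial markers 3 were in the table (55.9 to 56.1, 46.6 to 53.7 and 41.9 to 51.5 RPKM), with 1 higher and 1 lower with age and 1, *Slco1a4*, lower with repopulation. *Glul* and *Opalin*, given above for age, were not called with repopulation (log2 differences -0.0013 and 0.37, limma adjusted p = 0.982 and 0.0932). Choroid plexus and red blood cell markers, 6 listed of each, were at 0 genes in the table. Of 10 immediate early genes 5 were in the table, with sums of 106 to 170 RPKM in aged controls and 59.0 to 71.8 RPKM in aged repopulated mice, and all 5 were lower after repopulation. The part of these shifts in the values of the 12 genes was not tested.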

How the data were processed

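Hemibrain RNA-seq of 9 mice, 3 per group, was analysed, and other groups of the study are not analysed here. Per the methods and the submitters' processing notes, base calling used CASAVA 1.8.2 and alignment used ELAND on mm10. The authors turned reads into RPKM, kept genes above a minimum level, and modelled each gene by age and microglial state. What they deposited is the RPKM of the 689 genes that this model called, with each replicate in its own column. The deposited F and t scores and p-values are the authors' own results and were left aside. How reads were counted is not given in the sources used here, and 0 library columns stayed unmapped.

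Differences were estimated with limma (version 3.58.1, R 4.3.3) on log2(RPKM + 1), with 1 model for the 9 libraries, 3 contrasts, and Benjamini-Hochberg adjustment over all 689 genes at 0.05. Whole-read steps were looked for in the low values, with a best mean cosine of 0.179 to 0.273 by library, where 1 would be perfect, so that depth is unknown and no counting interval is given. Each library is a separate mouse, and 0 pairs shared a value. GENCODE M21 on GRCm38 (also called mm10) supplied coordinates and a transcript for 686 symbols, 19 of them by an older name. The transcript was the longest coding one, or the longest of any type for genes without a coding one. RefSeq supplied promoters.

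The prefix Atp1 was taken to need a letter after it. Without that, *Atp11a* would be a further gene, with log2 differences of 0.0041 (limma adjusted p = 0.934) for age and 0.12 (limma adjusted p = 0.0932) for repopulation. A few genes that enter the counts are not reported here by name. Genes and lists were chosen with earlier results of these data known. Library values are printed for the genes called with age without overlap, the highest gene of each role and the largest differences after repopulation. *Kcnab1* and all named genes outside the 12 were named after their values were seen. Each result was recomputed with pseudocounts of 0.1 and 10, without the log, after median centring, quantile normalization, and loess correction (span 0.75) for length or GC content, for the 341 genes with a mean of at least 20 RPKM, with only the groups compared, at 0.01, and without each library. Code was tested on simulated data. Python 3.11.15 (pandas 2.3.3, numpy 2.4.6, matplotlib 3.10.9) was used for tables and figures.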

Additional observations from a re-analysis of the deposited data

How the results depend on the processing

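No paired analysis was possible because the labels number the libraries P01 to P12 with no number shared between groups. Of the 12 genes, 9 were called with age, but 1 (*Cacng7*) at an adjusted p under 0.01 and 3 with transcript length correction, and 3 to 9 when 1 library was left out (3 without P09, 4 without P07, 5 without P11 or P12). Of all 689 genes, 269 (without P09) to 438 (without P10) were called with age when 1 library was left out. With length correction the age difference turned to -0.047 for *Atp6v0b*, -0.0070 for *Atp1b3* and 0.0022 for *Slc4a8*, and the cause was not tested. For repopulation against aged controls the count went from 0 to 4 with centring on the library median, and to 1 (*Kcna6*) with quantile normalization and with GC content correction. It was 0 to 1 with 1 library left out (*Scn1a* without P10, 0.19, limma adjusted p = 0.0311). Of all genes, the same comparison called 133 with centring, 73 with quantile normalization and 63 with GC content correction. It called 2 (without P03) to 141 (without P10) of all genes with 1 library left out. Against young controls the count among the 12 genes went from 0 to 1 (*Kcnj10*) with centring (-0.25, limma adjusted p = 0.0240), quantile normalization (-0.26, 0.0341) and GC content correction (-0.24, 0.0360). These fits called 61, 43 and 48 of all genes. Across single genes and alternatives, 162 age values kept their direction and side of the threshold, 38 lost the threshold, 9 gained it and 3 reversed. Only genes that the authors had called on these libraries were tested, 3 mice a group limit the intervals, and depth is unknown.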
